A study of Homo sapiens with 16 samples.

Results

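The Integrator genes described here are INTS1, INTS5, INTS11, INTS13, INTS14, INTS15, NABP2, INIP and BRAT1, 9 of the 20037 protein-coding genes on the main chromosomes of a RefSeq table of hg38. They were chosen with earlier results of these data known. All peaks that touch the gene body or the 5 kb on either side of it were collected from each of the 5 deposited peak lists, 119 peaks in all. Since the choice used these same lists, the peaks below are a description and no test was made.

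Integrator is a multi-subunit complex that binds RNA polymerase II near gene starts, cleaves the nascent RNA and ends transcription there, and it also forms the 3′ ends of small nuclear RNAs. It holds a backbone of large helical subunits, a cleavage module with the endonuclease INTS11, a phosphatase module, and an arm of INTS10, INTS13, INTS14 and INTS15 that is known to contact transcription factors. NABP2 and INIP join INTS3 in the SOSS complex, which binds single-stranded DNA, and BRAT1 binds INTS11. HDGF carries a PWWP domain, a fold that in related proteins such as PSIP1 reads methylated lysine 36 of histone H3, a mark of transcribed gene bodies.

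ChIP-seq, which recovers the DNA crosslinked to a protein, was done in HEK293T, an established cell line of human embryonic kidney origin, wild type in genotype in all groups. HDGF was precipitated from cells held 24 h without glucose and from cells given a control depletion, and INTS13 from glucose-starved cells, from cells treated for 72 h with a pool of small interfering RNAs against HDGF, and from control-depleted cells. Each of these 5 groups has 2 labelled replicates but a single deposited list, and the 6 input samples were not analysed here. No value below therefore has a replicate error, and no difference between groups could be set against one. INTS13 in starvation was precipitated with a Proteintech antibody and in the other groups with one from Bethyl Laboratories, and the labels name no depletion for the starved cells. Antibody, depletion treatment and starvation thus cannot be told apart for INTS13, nor depletion treatment and starvation for HDGF. The lists report neither RNA nor protein, so the cell type was not checked by markers, and the degree of HDGF depletion was not measured here.

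The lists held 68138 peaks for HDGF in starvation, 106674 for HDGF in control cells, and, for INTS13, 15639 in starvation, 105994 once HDGF was depleted and 31233 in control cells. A fold is the authors' measure of reads at a peak's highest point, its summit, over a background that is the same along a whole list. It was read here as the ratio of the 2 with 1 added to each, after scaling. The scale per read was 0.753 for HDGF in starvation, 0.486 for INTS13 in starvation and 1 in the other lists. The folds and p-values imply a background of 9.84, 6.69, 15.2, 4.2 and 6.4 reads in the same order of lists, so folds of different lists rest on unequal depth. The weakest peak called had 24, 16, 40, 12 and 17 reads in that order, and a gene without a peak may hold any signal below that. Read counts below are those implied by the fold, with exact Poisson 95% intervals that cover counting error only. Folds rank peaks within a list and are not compared between lists.

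2 start regions are shown because their transcription start lay within 1 kb of a summit in at least 2 lists: INTS14, the only one of the genes with an INTS13 summit inside its start region, and NABP2, whose start lies between HDGF peaks of the 2 conditions. Both come from RefSeq (GRCh38.p14), run 5′ to 3′ along the gene from 250 bases before the start to 50 after it, and carry capitals where a deposited peak covers them.
INTS14, chr15:65611082-65611381, minus strand: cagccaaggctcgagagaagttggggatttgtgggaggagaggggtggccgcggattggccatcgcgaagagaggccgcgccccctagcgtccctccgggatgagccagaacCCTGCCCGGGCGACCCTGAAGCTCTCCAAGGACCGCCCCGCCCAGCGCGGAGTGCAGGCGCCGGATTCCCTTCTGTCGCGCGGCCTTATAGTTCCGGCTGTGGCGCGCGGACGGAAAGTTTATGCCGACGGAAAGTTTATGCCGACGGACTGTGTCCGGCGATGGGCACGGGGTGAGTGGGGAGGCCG
NABP2, chr12:56224092-56224391, plus strand: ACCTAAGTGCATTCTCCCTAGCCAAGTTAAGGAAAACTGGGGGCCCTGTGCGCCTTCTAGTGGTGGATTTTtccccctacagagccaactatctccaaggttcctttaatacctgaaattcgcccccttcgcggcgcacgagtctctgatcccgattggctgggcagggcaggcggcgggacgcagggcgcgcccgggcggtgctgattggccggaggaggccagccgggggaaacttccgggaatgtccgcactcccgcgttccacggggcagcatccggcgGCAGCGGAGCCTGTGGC

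In the INTS14 sequence the capitals are the 188 bases under the INTS13 starvation peak, which hold the start site itself, and the summit is base 289 counted from the 5′ end. In the NABP2 sequence the first 71 bases lie under an HDGF peak of control cells and the last 17 bases under an HDGF peak of starved cells. The bases between them, the start site included, lay under no peak in any list.

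In the windows of the 9 chosen genes, most HDGF peaks lay at INTS1 and INTS11 in starvation and at INTS14 in control cells. In starved cells it formed 52 peaks at 7 of the 9 genes, against 51 peaks at 9 of the 9 in control cells, although the control list is the longer one. In starvation INTS1 and INTS11 held 20 and 14 of the 52 peaks, whereas in control cells INTS14 alone held 26 of the 51. Of the 14 at INTS11, 8 had summits in neighbouring genes. By summits in the gene body INTS1 held 16, INTS11 6 and BRAT1 6 in starvation, and INTS14 held 20 in control cells. Over all protein-coding genes 43.1% had an HDGF peak within the same window in starvation and 52.2% in control cells. The genes were chosen on these lists, so nothing is read from the distance to those shares. The order of the gene counts depends on list length: with the 15639 strongest peaks of each list, 4 genes had HDGF in starvation and 2 in control cells.

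INTS13 formed fewer peaks than HDGF at the same genes. It formed 2 peaks in starvation, 1 each at INTS1 and INTS14, and 14 peaks after HDGF depletion, at INTS14, INTS5, INTS1 and BRAT1. In control cells it formed 0 peaks at the 9 genes. The INTS13 lists of starved and control cells, with 15639 and 31233 peaks, were shorter than both HDGF lists. With the 15639 strongest peaks of each list, INTS13 was at 2 genes in starvation, 1 after depletion and 0 in control cells. HDGF was then at 4 genes in starvation and 2 in control cells. The shares of all protein-coding genes with an INTS13 peak in the window were 12.5% in starvation, 54.5% after depletion and 14.1% in control cells. The control share varied by chromosome, from 36.7% on chromosome 1, where INTS11 lies, 25.1% on chromosome 15, with INTS14, and 17.4% on chromosome 7, with INTS1, INTS15 and BRAT1, down to 3.46% on chromosome 11, with INTS5, and 4.1% on chromosome 12, with INTS13 and NABP2.

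**Figure D1:**
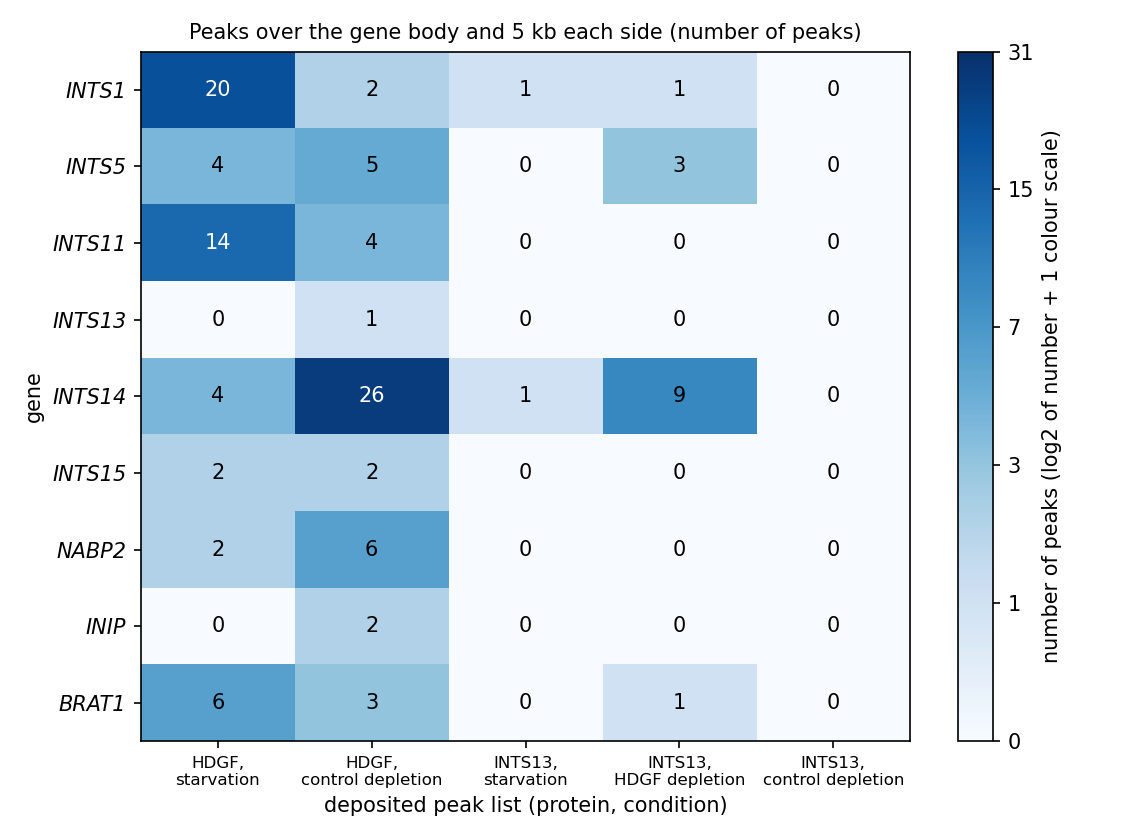
Number of deposited peaks that touch the gene body or the 5 kb on each side, for the 9 genes (rows) in the 5 lists (columns), with colour on a log2 scale of the number plus 1. INTS1 and INTS11 have most peaks for HDGF in starvation (20 and 14) and INTS14 for HDGF in control cells (26). Of the 14 at INTS11, 8 have summits in neighbouring genes. The last column, INTS13 in control cells, is 0 throughout.

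Most of the peaks were of middling strength in their lists, and a few stood high. Their median fold was 2.9 for HDGF in starvation, 2.73 for HDGF in control cells and 3.27 for INTS13 after depletion, against medians of 2.9, 2.86 and 3.27 over the whole lists. Of the 119 peaks 5 had a −log10 q of at least 5: 3 for HDGF in starvation, in the windows of INTS1, INTS11 and BRAT1, 1 for HDGF in control cells at INTS14, and 1 for INTS13 after depletion, also at INTS14. Over the whole lists 8.93% of HDGF starvation peaks, 10.4% of HDGF control peaks and 7.12% of INTS13 depletion peaks reached that level.

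**Figure D2:**
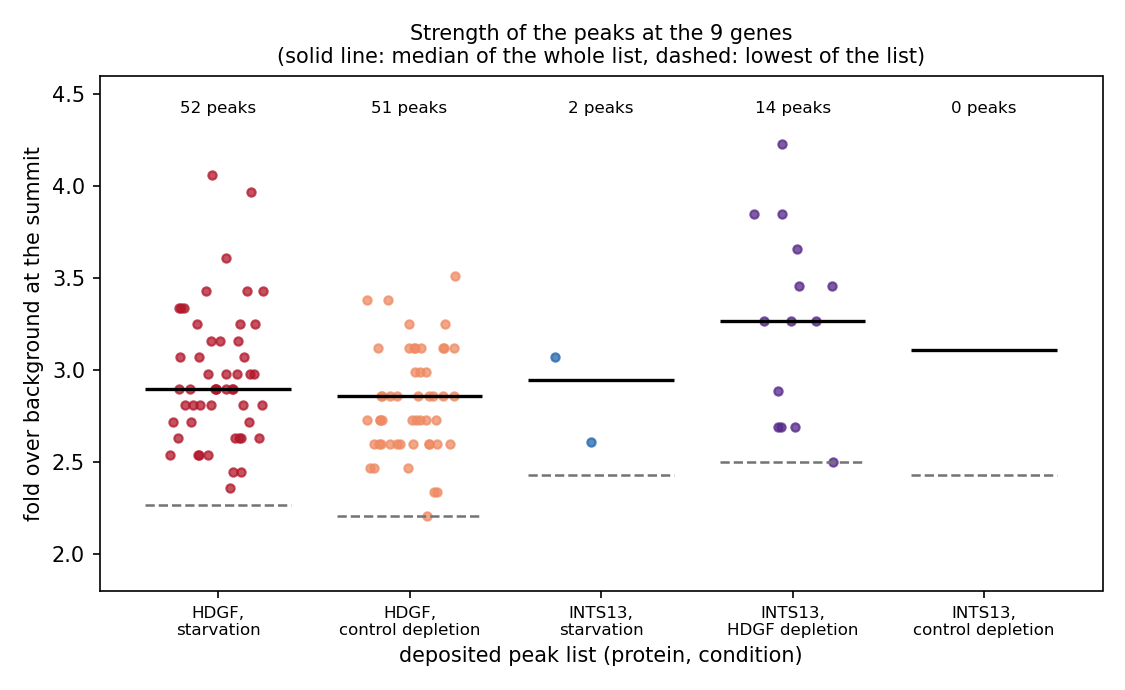
Fold over background at the summit (vertical axis) of every peak at the 9 genes, by list, with the points spread sideways at random. The solid line is the median of the whole list and the dashed line its lowest fold; most points lie near the median, and the highest are at 4.06 for HDGF in starvation and 4.23 for INTS13 after HDGF depletion.

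INTS1, the largest backbone subunit, is a gene of 34.1 kb on the minus strand (chr7:1470277-1504389). HDGF formed 20 peaks there in starved cells and 2 in control cells. The starvation peaks ran from 1.32 kb upstream of the start site to 37.7 kb downstream of it, past the end of the gene, and 10 of the 16 with a summit in the gene body lay beyond its midpoint. They covered 23.6% of the window, against 1.48% under the control peaks. The strongest, at chr7:1472934-1474282, is 1349 bp wide and lies 30357 bp from the start. It had a fold of 4.06, or 44 reads (interval 32 to 59.1), and ranked 1016 of 68138 in its list. The control peaks both had a fold of 2.86, or 21 reads (13 to 32.1), and lay near the start, 1065 and 3056 bp into the gene. None of the 20 starvation peaks shared a base with a control peak. Near the start, however, a starvation peak with its summit 1472 bp into the gene, of fold 2.98 (32 reads, 21.9 to 45.2), lay directly beside the control peak at 1065 bp.

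INTS13 lay at opposite ends of INTS1 in the lists that had it there. In starvation its summit was 37 bp past the annotated gene end, at chr7:1470180-1470407, with a fold of 2.61 (43 reads, 31.1 to 57.9), and this peak overlapped an HDGF starvation peak of fold 2.98. After HDGF depletion the summit was 3535 bp inside the gene from its start, with a fold of 2.69 (13 reads, 6.92 to 22.2). Both are near the lowest fold of their lists, which is 2.43 in starvation and 2.5 after depletion.

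INTS14, the partner of INTS13 in the arm, spans 32.4 kb on the minus strand (chr15:65578757-65611131). HDGF formed 4 peaks there in starvation and 26 in control cells. The control peaks ran along the whole gene and its surroundings, from 3.57 kb upstream of the start to 37.4 kb downstream, with a median of 1.33 kb between neighbouring summits and no gap over 4.04 kb. Of the 20 with a summit in the gene body, 10 lay on each side of its midpoint. They covered 27% of the window, against 3.52% under the starvation peaks. Their folds were 2.34 to 3.51, or 17 to 26 reads, with a median of 2.79 against 2.86 over the whole list. The strongest, at chr15:65585809-65586068, lies deep in the gene, 25218 bp from the start. The nearest control summits to the start were 1256 bp inside the gene and 1735 bp upstream of it, so none lay within 1 kb of the start.

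In starvation the 4 HDGF peaks of INTS14 had folds of 2.63 to 2.98, or 28 to 32 reads. 2 of them lay upstream of the start, with summits at 499 and 1144 bp, over the first part of SLC24A1, an ion exchanger gene. SLC24A1 is read in the other direction and starts 219 bp from the INTS14 start, so a peak here cannot be given to one of the 2 genes. The other 2 overlapped HDGF control peaks, and those upstream did not.

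INTS13 was found at INTS14 in both treated conditions and not in control cells. In starvation it formed 1 peak, at chr15:65611003-65611269, with its summit 38 bp inside the gene from the start and a fold of 3.07 (51 reads, 38 to 67.1). It overlapped no HDGF peak in any list, whereas 72% of all INTS13 starvation peaks overlapped an HDGF starvation peak, as did the other one at these genes, at INTS1. The nearest HDGF starvation summit was the one 499 bp upstream of the start. After HDGF depletion INTS13 formed 9 peaks with folds of 2.5 to 4.23, or 12 to 21 reads, of which 7 lay in the gene body. The strongest had 21 reads (13 to 32.1), lay 16655 bp into the gene and ranked 4857 of 105994. The depletion peak nearest to the start had its summit 992 bp upstream and lay over the HDGF starvation peaks there. So the starvation peak sat on the start site while the depletion peaks were spread over the gene, with none across the start. 3 of the 9 depletion peaks overlapped an HDGF control peak.

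**Figure D3:**
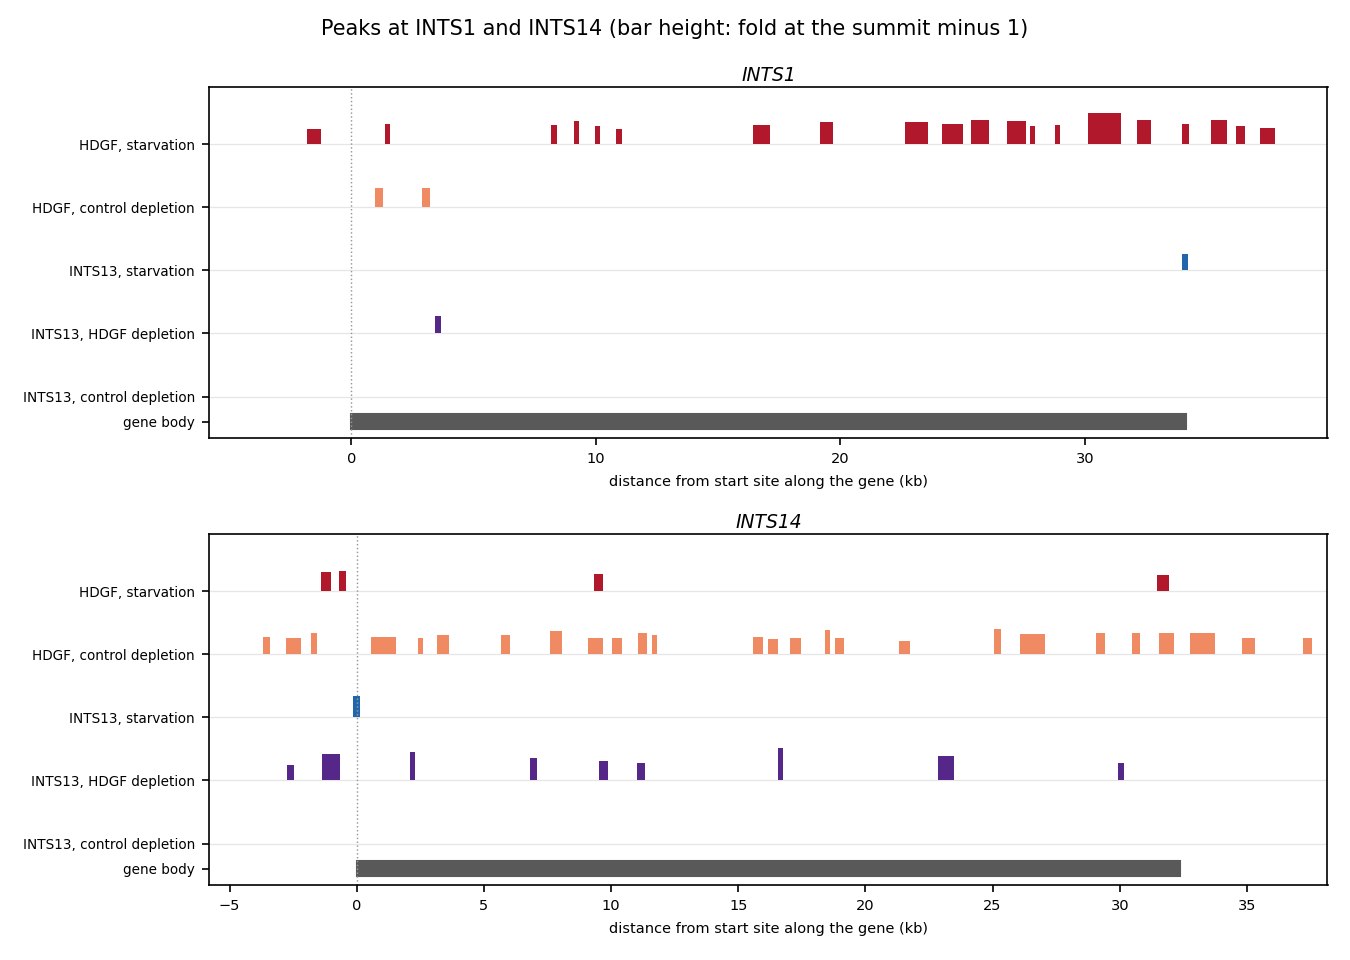
Peaks at INTS1 (top) and INTS14 (bottom) drawn to scale by distance from the start site along the direction of transcription (horizontal axis, kb), 1 lane per list, with the gene body in grey. Bar height is the fold at the summit minus 1; HDGF starvation peaks crowd the downstream part of INTS1 (20 peaks), HDGF control peaks run along INTS14 (26 peaks), and the INTS13 starvation peak of INTS14 lies on the start site.

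INTS11, the endonuclease of the complex, is a gene of 13.1 kb on the minus strand (chr1:1311600-1324660) in a dense stretch of genes. HDGF formed 14 peaks in its window in starvation and 4 in control cells. In starvation 6 of the 14 summits lay in INTS11 and the other 8 in its neighbours: 6 over CPTP, a lipid transfer protein gene whose body begins 142 bp from the INTS11 start, 1 in PUSL1 and 1 in ACAP3. All 4 control summits were inside INTS11. The strongest starvation peak of the window, with a fold of 3.61 (39 reads, 27.7 to 53.3), lay in PUSL1, and the strongest inside INTS11 had a fold of 3.43 (37 reads, 26.1 to 51). The control folds were 2.34 to 2.86, or 17 to 21 reads. Of the 4 control peaks 3 overlapped a starvation peak, at summits 3550 to 11670 bp into the gene. INTS13 had 0 peaks in the window in all 3 conditions.

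BRAT1, whose product binds INTS11, is a gene of 17.7 kb on the minus strand (chr7:2537810-2555524). HDGF formed 6 peaks there in starvation, with folds of 2.54 to 3.97, and 3 in control cells, with folds of 2.47 to 2.73. In starvation 5 of the 6 lay 12887 to 17328 bp from the start, in the last part of the gene, and the sixth 1030 bp inside it. The strongest had 43 reads (31.1 to 57.9). In control cells the peaks with summits at 16879 and 17656 bp overlapped starvation peaks, and the third lay 1685 bp upstream of the start. HDGF thus held the end of BRAT1 in both lists. INTS13 formed 1 peak after depletion, 1681 bp inside the gene with a fold of 3.46 (17 reads, 9.9 to 27.2), and it overlapped no HDGF peak.

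INTS5, a subunit of the shoulder of the complex, is the shortest of the genes at 6.5 kb (chr11:62646848-62653302), and its strand was not used here. HDGF formed 4 peaks in its window in starvation, of which 3 were in the gene with folds of 2.81 to 3.43. In control cells it formed 5, of which 2 were in the gene with folds of 2.6 and 2.73 and the other 3 in GANAB, a glucosidase subunit gene whose body begins 235 bp away. The starvation summits in the gene clustered in its lower-coordinate part, 642 to 2760 bp from that end. The control summits lay toward both ends, 814 bp from the lower and 1187 bp from the higher one. INTS13 after depletion had 3 peaks, and the strongest, with a fold of 3.85 (19 reads, 11.4 to 29.7), lay 716 bp inside the higher-coordinate end, where HDGF starvation had no peak.

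NABP2, a single-stranded DNA binding protein of SOSS, is a gene of 7.8 kb (chr12:56222015-56229854) whose listed start site lies 2327 bp inside its annotated body. HDGF formed 2 peaks there in starvation, both with a fold of 2.81 (30 reads, 20.2 to 42.8), and 6 in control cells with folds of 2.73 to 2.99. The starvation summits lay 2026 bp upstream and 296 bp downstream of the start. The control summits nearest the start lay 457 bp upstream and 826 bp downstream. Near the start the peaks of the 2 lists lay side by side without overlap, as the sequence above shows, and 1 pair overlapped at the upstream end of the gene. INTS13 had 0 peaks in the window in any condition. INIP, the other SOSS subunit, is a gene of 34.2 kb (chr9:112683926-112718117). HDGF had 0 peaks there in starvation and 2 in control cells, with folds of 2.47 and 3.12 and summits 924 and 1519 bp inside the higher-coordinate end.

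The arm subunits INTS15 and INTS13 held few peaks. INTS15, a gene of 18.7 kb on the plus strand (chr7:6590021-6608726), had 2 HDGF peaks in starvation and 2 in control cells. One pair overlapped, 13061 bp (starvation) and 13205 bp (control) into the gene, with folds of 2.72 and 2.86. The other starvation summit lay 356 bp upstream of the start with a fold of 2.63, and the other control summit 1896 bp downstream of it with a fold of 2.21, the lowest fold of the control list. The INTS13 gene itself (33.2 kb, chr12:26905181-26938332) had 1 peak in all 5 lists together. That peak was HDGF in control cells, 3332 bp downstream of the listed start site, which lies 351 bp inside the annotated body, with a fold of 2.73 (20 reads, 12.2 to 30.9). INTS13 protein had 0 peaks at its own gene in starvation, after HDGF depletion and in control cells.

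**Figure D4:**
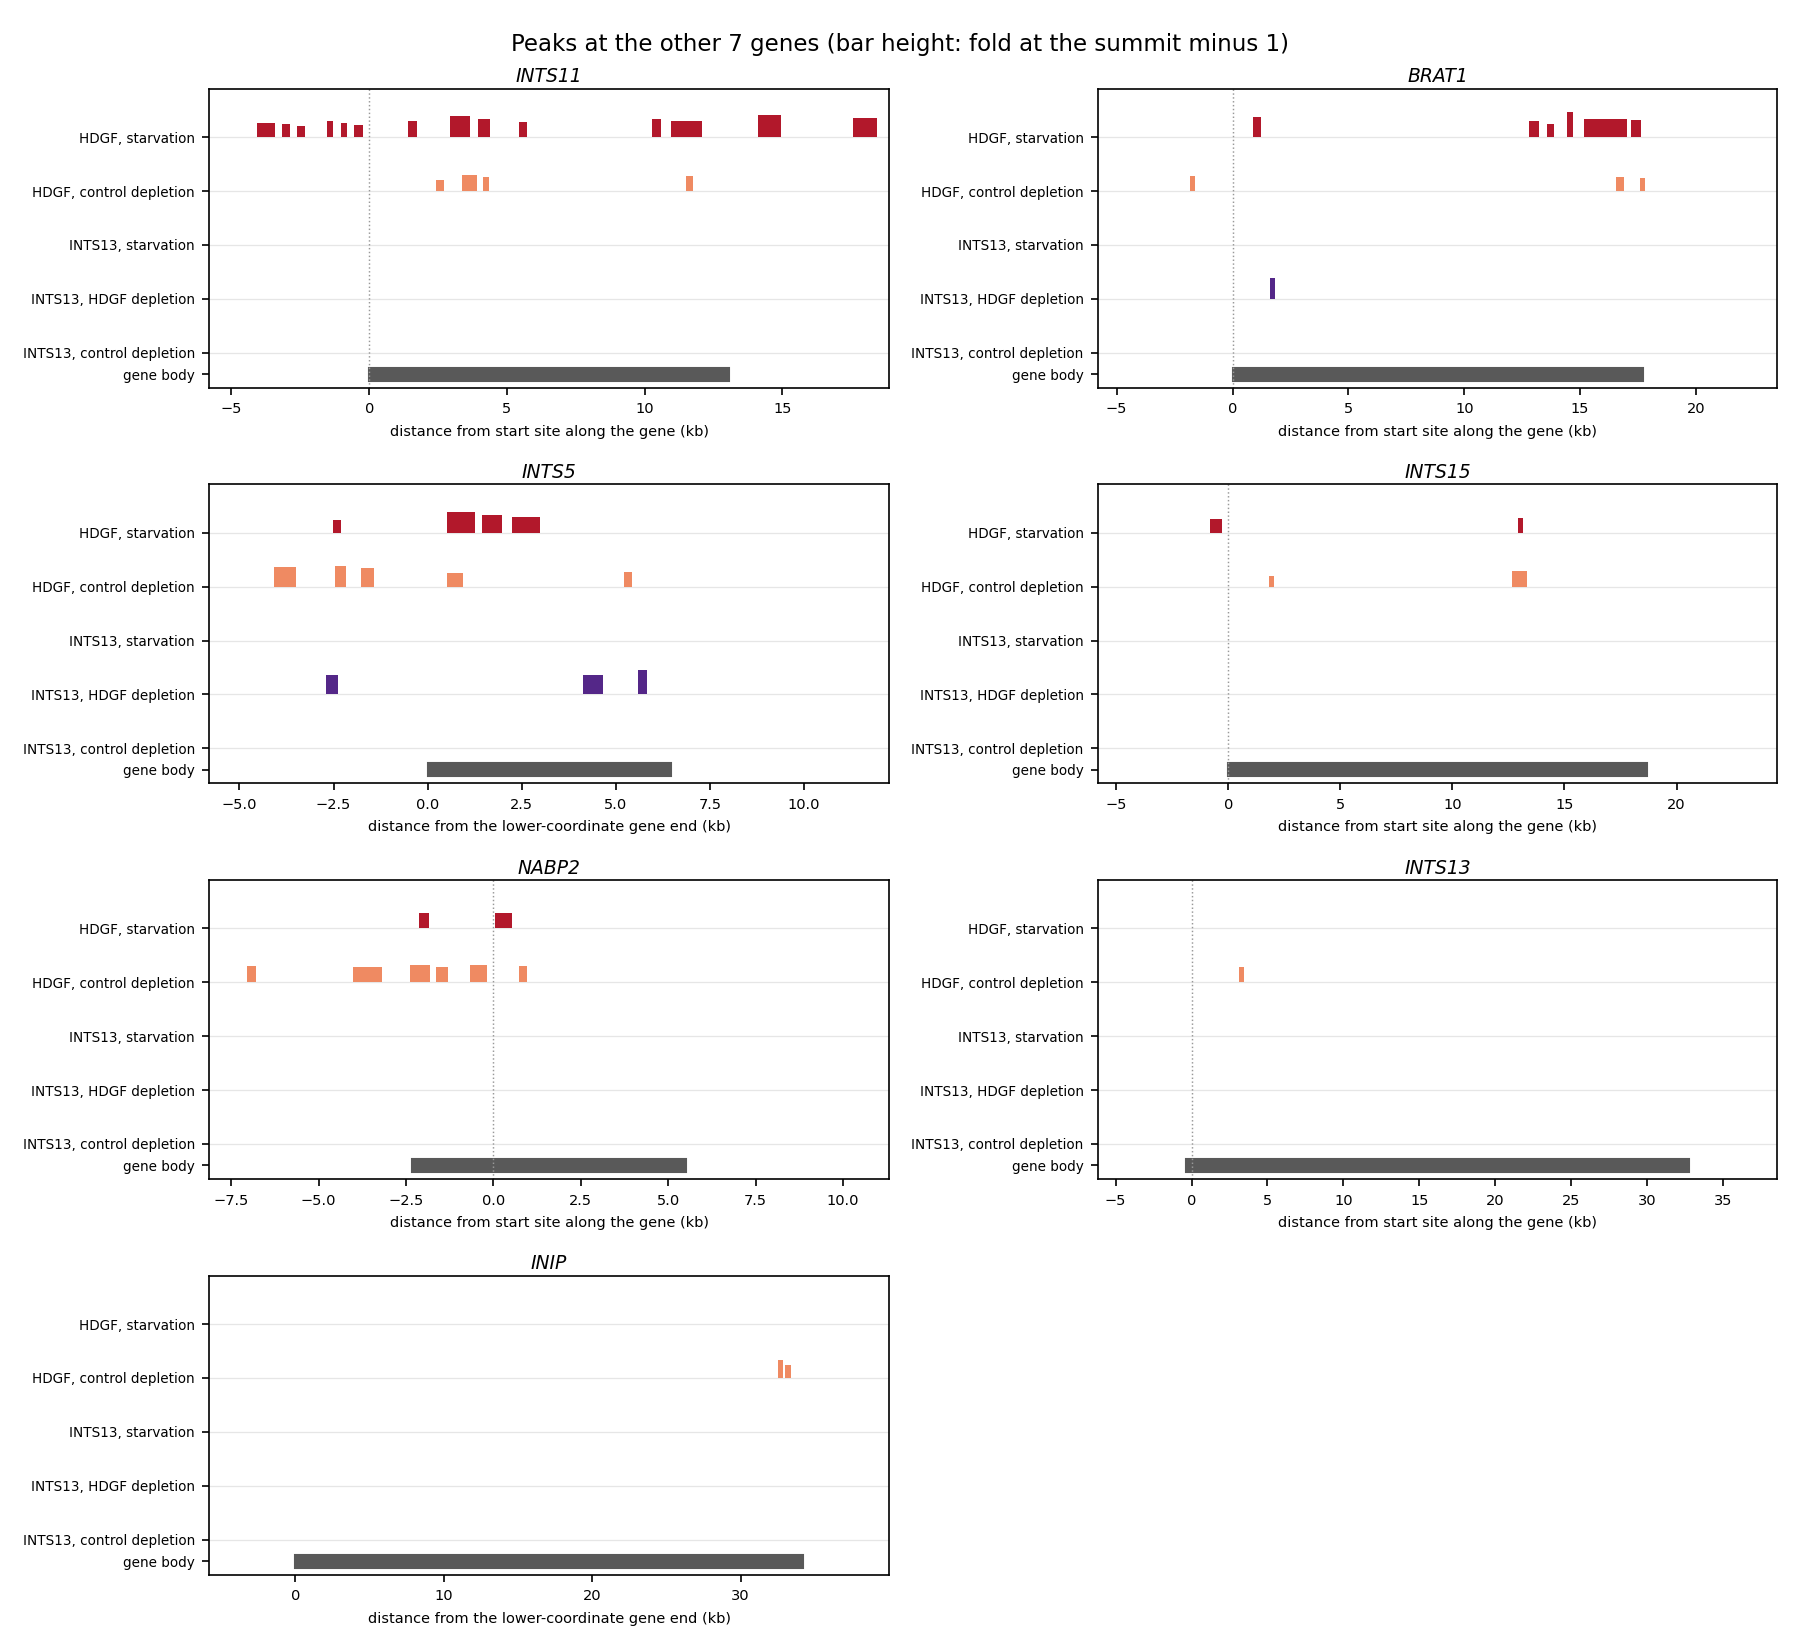
Peaks at the other 7 genes drawn to scale by distance in kb (horizontal axis), 1 lane per list, with the gene body in grey and bar height the fold at the summit minus 1. Distance runs along the gene from the start site, or from the lower-coordinate end for INTS5 and INIP; HDGF starvation peaks sit at the end of BRAT1 and on both sides of the INTS11 start, and INTS13 peaks appear only after HDGF depletion, at INTS5 and BRAT1.

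Summits near the start sites were counted next, with either gene end used for INTS5 and INIP, whose start was not used. A summit lay within 1 kb of the start, or of either gene end for INTS5 and INIP, at 5 of the 9 genes in starvation (INTS5, INTS11, INTS14, INTS15 and NABP2) and at 3 of 9 in control cells (INTS5, NABP2 and INIP). For INTS13 these were 1 gene in starvation (INTS14), 2 after HDGF depletion (INTS5 and INTS14) and 0 in control cells. Among the 15843 protein-coding genes with a listed start, taking the first one listed, the HDGF shares were 13.6% in starvation and 10.3% in control cells. The INTS13 shares were 5.95% in starvation, 13.9% after depletion and 3.7% in control cells. Within 1 kb of either gene end, among 20037 genes, the HDGF shares were 21.7% in starvation and 19.3% in control cells, and the INTS13 shares 6.71% in starvation, 19.1% after depletion and 4.77% in control cells. Within 500 bp the HDGF counts were 4 genes in starvation and 1 in control cells, and within 2500 bp 7 in each. With a −log10 q of at least 5 they were 0 in starvation and 0 in control cells. With the 15639 strongest peaks of each list they were 1 in starvation and 0 in control cells. The starvation summits counted at INTS11 and INTS14 lay inside the neighbours CPTP and SLC24A1. The one at INTS15 lay nearer to the neighbour ZDHHC4. The control summits counted all lay inside the bodies of INTS5, NABP2 and INIP. The difference at 1 kb thus rests on weaker peaks, on the distance chosen and on summits in or nearer to neighbouring genes. The genes were chosen with earlier results of these lists known, so these counts stand as a description. INTS1, INTS11 and INTS15 had no HDGF summit at a gene end in control cells and 1 or more in starvation, but each held 2 to 4 HDGF control peaks inside its body. Whether HDGF counts as gained there depends on the place asked about.

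Overlap means at least 1 shared base. Of the 52 starvation peaks 11 overlapped a control peak (21.2%), against 34.9% over the whole starvation list. Of the 51 control peaks 11 overlapped a starvation peak (21.6%), against 21% over the whole control list. The shared pairs were 3 at INTS11, 2 each at INTS5, INTS14 and BRAT1, and 1 each at INTS15 and NABP2, with 0 at INTS1. After merging overlapping peaks the 119 peaks formed 101 sites, of which 86 came from 1 list, 13 from 2 and 2 from 3. The sites in 3 lists were chr15:65601250-65602043, inside INTS14, and chr11:62644160-62644688, inside GANAB beside INTS5, each with HDGF in starvation, HDGF in control cells and INTS13 after HDGF depletion. Of the 14 INTS13 depletion peaks 4 overlapped an HDGF control peak (28.6%), against 25.8% over the whole depletion list.

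The density of HDGF peaks at the genes moved with that of their surroundings. INTS1 had 4.53 HDGF summits per 10 kb in starvation and 0.453 in control cells, and the 500 kb on each side of its window had 1.23 and 0.18 per 10 kb. INTS11 had 6.07 in starvation and 1.73 in control cells, with 2.22 and 0.63 around it. Its starvation density includes 8 summits that lie in neighbouring genes. INTS14 went the other way, with 0.944 in starvation and 5.9 in control cells, and 0.7 and 2.45 around it. In each of these 3 genes the region and the gene thus lay higher in the same condition, and the part of the region in the result was not tested. The gene exceeded its surroundings in both lists in all genes but INTS13 and INIP, which had 0 summits in starvation. Across all protein-coding genes the median was 0 per 10 kb in starvation and 0.0851 in control cells. A density below that of INTS11 in starvation was found at 98.7% of genes, below that of INTS1 in starvation at 95.8% and below that of INTS14 in control cells at 97.6%. Because the genes were chosen with these lists known, a density above their surroundings or above most genes is description only.

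**Figure D5:**
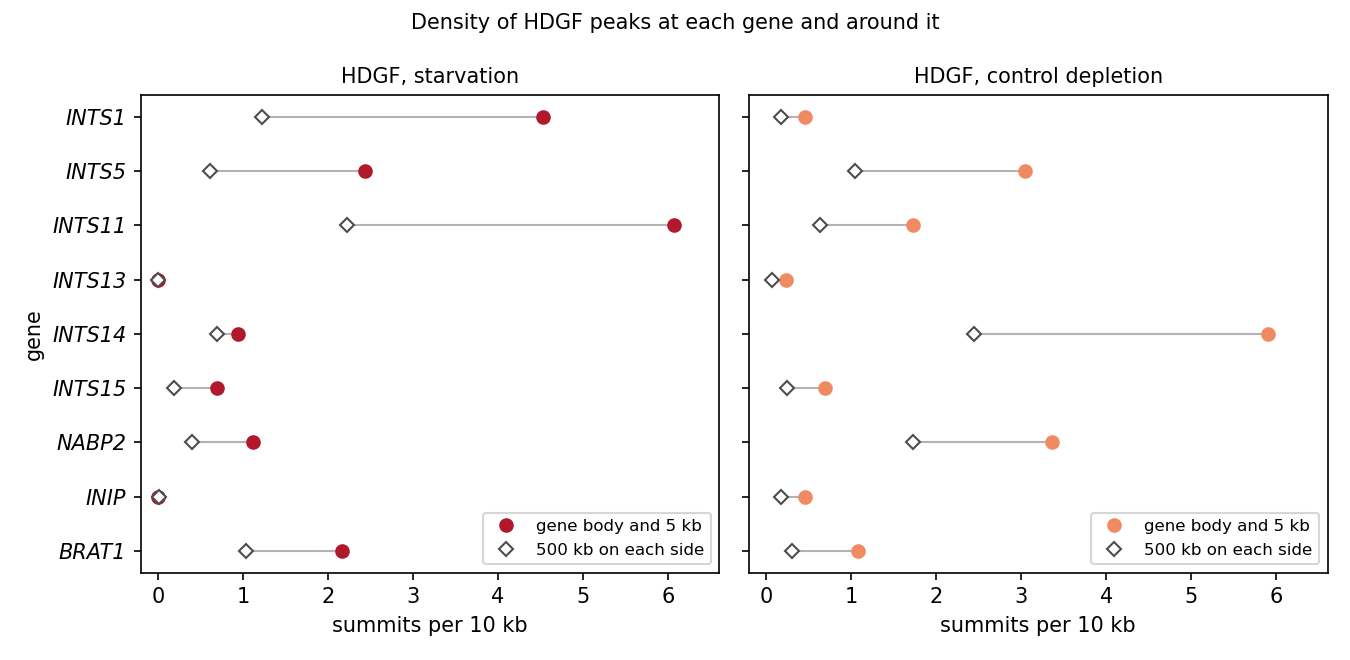
HDGF summits per 10 kb (horizontal axis) in the window of each gene (filled circles) and in the 500 kb on each side of it (open diamonds), in starvation (left) and control cells (right). INTS1 and INTS11 reach 4.53 and 6.07 in starvation and INTS14 reaches 5.9 in control cells, each with a raised density around it in the same list.

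The other Integrator genes give the setting. Of the 19 genes INTS1 to INTS15, NABP1, NABP2, INIP and BRAT1, 8 had an HDGF peak in the window in starvation and 14 in control cells, 2 had INTS13 in starvation, 8 had it after depletion and 0 in control cells. Over all protein-coding genes the shares for HDGF were 43.1% in starvation and 52.2% in control cells. For INTS13 they were 12.5% in starvation, 54.5% after depletion and 14.1% in control cells. The 19 include the 9 chosen genes, and no difference from these shares was tested. Outside the 9 genes, the only HDGF peaks in starvation were 3 at INTS7, a backbone subunit gene on chromosome 1. In control cells INTS7 held 30, INTS2 held 10, INTS8 held 4, INTS6 held 3 and INTS4 held 2. INTS13 after depletion was at INTS7 (6 peaks), INTS2 (2), INTS8 (2) and NABP1 (1). INTS7 is 95.2 kb long, and its 30 HDGF control peaks, with folds up to 3.64, exceed in number those of any of the 9 genes. The median number of HDGF peaks per gene over the 19 was 0 in starvation and 2 in control cells, against 0 and 1 over all protein-coding genes. At the edge of the window, the outermost INTS14 control peak just inside lay 4.84 kb from the gene with a fold of 2.6, and the next just outside lay 5.36 kb away with a fold of 2.86. At INTS11 the nearest starvation peak just outside lay 5.03 kb away with a fold of 3.16.

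Other genes were ranked by likeness, taking in each list the percentile of the strongest peak with a summit within 1 kb of a gene end, and the Euclidean distance over the 5 lists. Few distinct p-values occur, so distances of 0 were common. CPLX3 alone matched INTS14, with percentiles of 74.5 for HDGF in starvation, 78.7 for HDGF in control cells, 64.6 for INTS13 in starvation, 82.2 for INTS13 after depletion and 0 for INTS13 in control cells. NBEAL2 was 1 of 2 genes that matched INTS1, C1orf122 1 of 2 that matched INTS5, ATN1 1 of 12 that matched NABP2 and ANTKMT 1 of 26 that matched BRAT1, each at distance 0. A summit within 1 kb of a gene end in all lists but INTS13 control, as at INTS14, occurred at 206 protein-coding genes (1.03%).

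Start regions of 7 of the 9 genes were in the RefSeq table, all but INTS5 and INIP, and were searched on both strands for short motifs. The GC box GGGCGG was found in all 7, and in 58.5% of 15843 start regions of protein-coding genes. The ETS core CCGGAAG was found in 3 (INTS1, INTS11 and NABP2), against 14.2%, and CCAAT in 4 (INTS11, INTS13, INTS14 and NABP2), against 36.4%. The letters of YY1 (AAGATGGC), of part of the ZNF143/THAP11 motif (ACTACAA), of the CRE (TGACGTCA), of a CARE-like site (TGATGNAA), of the TATA box (TATAAA) and of the E box (CACGTG) were in none of the 7, against 2.53% to 9.63% of all. In the INTS14 start region the 2 GC boxes lie under the INTS13 starvation peak, at bases 145 and 150 from the 5′ end, and the CCAAT match at base 55 lies outside it. In the NABP2 start region all matches lie between the HDGF peaks. The G and C share was 67.3% at INTS14 and 63.7% at NABP2, against a median of 62.7% over all start regions.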

How the data were processed

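The data are 5 peak lists of HDGF and INTS13 ChIP-seq (150 bp paired-end reads per the labels), 1 per ChIP group. FastQC, Trimmomatic, Bowtie, Picard, MACS2 and the build hg38 are named in the submitters' processing notes. The peak names carry 0.05. Tool versions, other settings, how inputs were used and whether replicates were pooled: not given in the sources used here. The deposited columns used were the fold (a ratio to background at the summit), the −log10 p and −log10 q, and the summit position; the deposited integer score was not used.

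The members and lists were chosen with earlier results of these data known. Peaks off chromosomes 1 to 22, X and Y were left out, and a peak was counted for every gene whose window it touched. Start sites and strands came from the RefSeq start region table, which held 7 of the 9 genes. Backgrounds and summit reads were derived from the deposited fold and −log10 p with a Poisson model of 1 mean per list. The fold was taken as scaled summit reads over scaled background, with 1 added to each. The reads of every distinct fold came out within 0.1 of a whole number, and the fitted −log10 p lay within 0.01 for between 77 of 88 folds (INTS13 after HDGF depletion) and 153 of 153 (INTS13 in starvation). Overlap means at least 1 shared base, and the genes named are the members, genes with a window peak among the Integrator list, their neighbours and the nearest gene by pattern. Alternatives were a −log10 q of at least 5, lists cut to the 15639 strongest peaks (ties broken at random), other windows and stricter overlaps. Python 3.11.15, pandas 2.3.3, numpy 2.4.6 and scipy 1.17.1 were used.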

Additional observations from a re-analysis of the deposited data

How the results depend on the processing

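Of the recomputed counts, 53 stayed within 1.5 times the reported value and 30 did not. With a −log10 q of at least 5, a peak remained in the window for HDGF at 3 genes in starvation and 1 in control cells, and for INTS13 at 0 in starvation and 1 after depletion. No gene then had a summit at its start (0 in each list), and 4, 3, 0 and 1 of the 19 Integrator genes had a peak in the same order. In lists of 15639 peaks, HDGF was at 4 genes in starvation and 2 in control cells and INTS13 after depletion at 1. Starts were then at 1, 0 and 0 genes and the 19 Integrator genes at 5, 4 and 1, and no overlap was left between HDGF starvation and control (0), INTS13 and HDGF in starvation (0) or INTS13 depletion and HDGF control (0). Within 500 bp of the start HDGF control was at 1 gene and INTS13 depletion at 0, and within 2500 bp HDGF control was at 7. When at least 50% of both peaks had to be shared, 6 HDGF starvation peaks and 1 INTS13 depletion peak overlapped HDGF control, and by summits within 250 bp 6 HDGF starvation peaks matched HDGF control. Counting by gene body, by 1 kb windows, by summits, or without peaks nearer to another gene (chosen after seeing the data) kept the window counts within 1.5 times, and INTS13 control stayed at 0 throughout. The cause was not tested; a stricter q and a shorter list leave fewer peaks by construction. No paired analysis was possible because each group has 1 list without values per replicate, and replicates could not be left out for the same reason.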

Other observations

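Of 5 genes of Integrator partners (INTS6L, PPP2CA, PPP2R1A, SEM1 and WDR73), WDR73 held the most peaks. WDR73 lies on chromosome 15, as INTS14 does. It held 11 HDGF peaks in starvation, 15 HDGF peaks in control cells, and INTS13 peaks numbering 0 in starvation, 10 after HDGF depletion and 0 in control cells. The highest folds were 3.16 for HDGF in starvation, 3.51 for HDGF in control cells and 4.23 for INTS13 after depletion. INTS6L held 5 HDGF peaks in control cells and 3 INTS13 peaks after depletion, and PPP2R1A, the scaffold of protein phosphatase 2A, held 1 INTS13 peak after depletion. PPP2CA and SEM1 held 0 peaks in any list.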
